A study of Saccharomyces cerevisiae with 24 samples.

Results

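Haploid Saccharomyces cerevisiae lacking the ribosome-associated factor Mbf1 were compared with cells lacking the kinase Gcn2 with both strains treated with methyl methanesulfonate (MMS), which alkylates DNA and RNA. The members were chosen by sample title, as the 3 treated mbf1Δ and the 3 treated gcn2Δ libraries, 6 of the 24 in the study, and levels were compared directly over every gene except MBF1 and GCN2. The treated mbf1Δ cells were BY4741 MATa mbf1Δ::NAT and the treated gcn2Δ cells BY4741 MATa gcn2Δ::KAN, each grown in YPD and given 0.1% MMS for 1 h. The untreated cells of the same strains (3 libraries each) and treated BY4741 MATa wild type (WT, 3 libraries) were used beside them. Polyadenylated RNA was sequenced. Every strain shares the BY4741 background, each deletion replaces its gene with a drug-resistance cassette, and the labels do not say how many independent clones stand behind a strain.

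Gcn2 phosphorylates the initiation factor eIF2 when uncharged tRNA accumulates or ribosomes collide. Phosphorylated eIF2 lowers general initiation but favours translation of GCN4 mRNA through the short reading frames in its leader, and the Gcn4 protein then activates amino acid biosynthesis genes. Mbf1 was known first as a coactivator that bridges Gcn4 and TATA-binding protein, and it also binds collided ribosomes, where it limits frameshifting. The comparison asks how far treated cells without Mbf1 resemble treated cells without Gcn2. A difference in mRNA level here is not a measure of translation, and fewer cells with an mRNA cannot be told apart from less of it per cell.

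Before the levels, 7 upstream windows are shown, so that the letters before genes of each main group can be read beside their values. Each covers 300 to 51 bases before the start codon, is 250 bases long and was read from the RefSeq R64 genome on the gene's own strand. Capitals mark matches to motifs searched on both strands: the Gcn4 core TGACTC, the stress response element AGGGG bound by Msn2 and Msn4, the PAC element GATGAG and the RRPE core AAAATTTT. A match describes the letters only. The first 4 windows belong to amino acid biosynthesis genes that were higher in mbf1Δ cells. The ARG7 window lies at chrXIII:396430-396679 (minus strand), ARG4 at chrVIII:141453-141702 (minus strand), HIS4 at chrIII:68384-68633 (minus strand) and HOM3 at chrV:258009-258258 (minus strand).
ARG7: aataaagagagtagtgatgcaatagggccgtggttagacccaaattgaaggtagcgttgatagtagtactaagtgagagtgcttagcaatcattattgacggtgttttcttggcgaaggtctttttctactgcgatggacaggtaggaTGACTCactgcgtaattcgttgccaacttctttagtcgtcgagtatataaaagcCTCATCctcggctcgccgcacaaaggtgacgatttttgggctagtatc
ARG4: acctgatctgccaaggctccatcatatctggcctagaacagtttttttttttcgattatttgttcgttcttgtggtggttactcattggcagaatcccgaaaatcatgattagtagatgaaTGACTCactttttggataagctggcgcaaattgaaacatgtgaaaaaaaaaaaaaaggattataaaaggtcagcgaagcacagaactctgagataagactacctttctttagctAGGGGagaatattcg
HIS4: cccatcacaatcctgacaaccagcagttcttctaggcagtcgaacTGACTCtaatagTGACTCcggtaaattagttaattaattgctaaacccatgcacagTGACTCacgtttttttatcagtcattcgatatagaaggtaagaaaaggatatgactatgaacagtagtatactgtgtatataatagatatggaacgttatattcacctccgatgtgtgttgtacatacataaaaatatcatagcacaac
HOM3: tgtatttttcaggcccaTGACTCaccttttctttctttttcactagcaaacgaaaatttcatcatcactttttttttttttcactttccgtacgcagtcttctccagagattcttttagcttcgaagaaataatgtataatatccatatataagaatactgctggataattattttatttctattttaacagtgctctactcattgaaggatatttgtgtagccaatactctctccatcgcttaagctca
HIS4 holds 3 Gcn4 cores and each of ARG7, ARG4 and HOM3 holds 1, while ARG7 also holds a PAC match and ARG4 also an AGGGG match.

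The next windows belong to stress genes that were higher in mbf1Δ cells, SOL4 at chrVII:985672-985921 (plus strand) and DCS2 at chrXV:656964-657213 (plus strand), chosen to show AGGGG matches, and to NAN1, a ribosome assembly gene that was lower, at chrXVI:309910-310159 (plus strand).
SOL4: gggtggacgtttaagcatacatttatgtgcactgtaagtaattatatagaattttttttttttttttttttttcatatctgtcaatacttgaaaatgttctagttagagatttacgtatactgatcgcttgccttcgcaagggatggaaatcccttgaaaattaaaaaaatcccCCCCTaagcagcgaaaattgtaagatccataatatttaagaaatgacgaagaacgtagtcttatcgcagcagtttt
DCS2: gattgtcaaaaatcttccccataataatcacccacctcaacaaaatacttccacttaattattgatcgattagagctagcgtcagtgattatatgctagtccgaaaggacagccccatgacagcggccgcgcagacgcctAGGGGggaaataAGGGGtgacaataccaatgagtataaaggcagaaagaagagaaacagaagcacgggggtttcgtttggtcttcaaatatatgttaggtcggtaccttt
NAN1: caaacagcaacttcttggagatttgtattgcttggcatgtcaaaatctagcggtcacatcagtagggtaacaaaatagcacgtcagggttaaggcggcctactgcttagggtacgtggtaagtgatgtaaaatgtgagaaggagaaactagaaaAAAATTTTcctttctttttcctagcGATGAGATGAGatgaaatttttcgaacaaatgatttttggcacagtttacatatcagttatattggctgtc
SOL4 has 1 AGGGG match, on the opposite strand, and DCS2 has 2. NAN1 has 2 PAC matches and 1 RRPE core.

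Library totals ran from 13518147 to 28366559 estimated counts over the 24 libraries and from 14525774 to 20519299 over the 6. The deletions were visible in the counts. MBF1 stood at 0.0731, 0.442 and 0.378 CPM (counts scaled to a common library size, after TMM normalization) in treated mbf1Δ cells, against 1003, 1075 and 956 in treated gcn2Δ cells. GCN2 stood at 88.3, 63.5 and 59.4 CPM in treated mbf1Δ cells, against 0.912, 1.1 and 1.22 in treated gcn2Δ cells. The MATa marker genes summed to 1210 to 1322 CPM in treated mbf1Δ cells and 1283 to 1567 CPM in treated gcn2Δ cells, and URA3 and MET17, which BY4741 lacks, were at 0 throughout. Replicate 1 of treated mbf1Δ stood apart: genes over the rDNA repeats took 8.85% of its counts, against 17.3% and 17.7% in replicates 2 and 3, while treated gcn2Δ libraries had 11.7%, 12.3% and 14.7%. Its log2 CPM differed from replicates 2 and 3 with SDs of 0.345 and 0.41 over genes, against 0.219 between those replicates. Treated gcn2Δ libraries differed from each other with SDs of 0.232 to 0.351. Pairs of libraries from different strains had SDs of 0.339 to 0.46, so the ranges within and between strains overlapped. Replicate 1 of treated mbf1Δ was nearer to replicate 1 of treated gcn2Δ (0.339) than to its own replicates (0.345 and 0.41). Over all genes the libraries thus did not separate cleanly by strain. Without replicate 1 of treated mbf1Δ, 692 of 5830 tested genes were higher and 784 lower. In that fit, 44 of the 67 amino acid genes named below were higher and 1 lower, and 14 of 29 Hsf1 chaperone genes were higher and 1 lower. The Msn2 and Msn4 list then had 24 of 38 higher and 0 lower, the ribosome biogenesis list 80 of 97 lower, the ribosomal protein list 118 of 137 lower and 1 higher, and the cyclin list 11 of 20 lower.

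Of 5822 genes tested, 807 differed between treated mbf1Δ and gcn2Δ cells (13.9%) at an adjusted p under 0.05 in edgeR's quasi-likelihood test with Benjamini-Hochberg adjustment, with the spread estimated over all 24 libraries. In mbf1Δ cells 367 were higher (6.30%) and 440 lower (7.56%). Only 22 differed at least 2-fold (0.378%), 19 of them higher (0.326%). The 6 libraries tested alone gave 104 (1.80%), 55 higher (0.950%) and 49 lower (0.846%), all of them among the 807. Without replicate 1 of treated mbf1Δ the count was 1476 of 5830 tested (692 higher and 784 lower). With the rDNA share of each library as a covariate the count was 990. Levels of the libraries did not overlap between the strains for 1162 genes (20.0%), higher in mbf1Δ cells for 543 (9.33%) and lower for 619 (10.6%), and 710 of them were among the 807. On the scale of TPM, transcript abundance corrected for gene length, the median over all genes moved by -0.135 log2 and the split became 100 higher and 471 lower, so differences smaller than that shift depend on the scale.

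**Figure D1:**
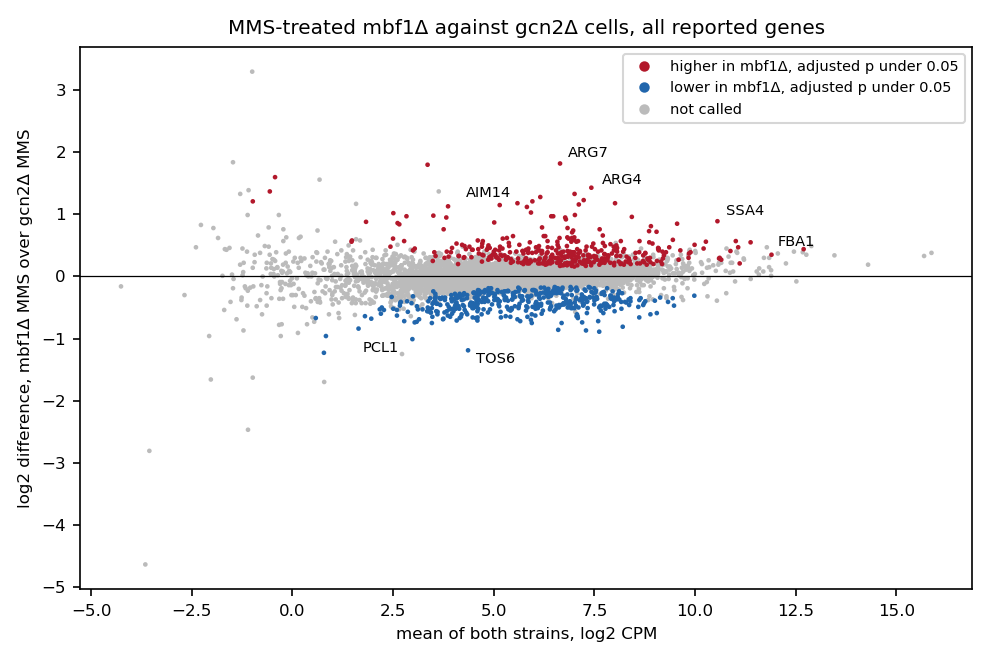
Log2 difference of treated mbf1Δ over treated gcn2Δ cells (vertical axis) against the mean level of both strains in log2 CPM (horizontal axis), 1 point per gene. Red points were higher and blue points lower in mbf1Δ cells at an adjusted p under 0.05, and grey points did not pass; ARG7, at 1.82, is the highest point in red.

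Genes of arginine synthesis stood highest. ARG7, the mitochondrial ornithine acetyltransferase, had 161, 151 and 155 CPM in treated mbf1Δ cells, against 45.3, 43.9 and 43.4 in treated gcn2Δ cells and 711, 749 and 697 in treated WT. Every mbf1Δ library lay far above every gcn2Δ library and far below WT. The difference between the deletions was 1.82 log2, or 3.52-fold (SE 0.0509, adjusted p = 2.14e-17, edgeR's quasi-likelihood test). CPA1, the small subunit of carbamoyl phosphate synthetase, had 159, 237 and 236 CPM in mbf1Δ cells and 87.4, 72.7 and 109 in gcn2Δ cells, 1.23 log2 apart, with mbf1Δ replicate 1 below its partners but still above every gcn2Δ library. YOR302W, the short reading frame in the leader of CPA1, differed by 1.80 log2, but its reads cannot be separated from those of the CPA1 leader.

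The other steps of the pathway followed. ARG4, argininosuccinate lyase, had 236, 255 and 261 CPM in mbf1Δ cells and 92.3, 92.1 and 95.1 in gcn2Δ cells (1.43 log2). ARG1, argininosuccinate synthetase, had 91.1, 103 and 107 CPM in mbf1Δ cells and 37.9, 38.5 and 48.1 in gcn2Δ cells (1.28 log2). ARG3, ornithine carbamoyltransferase, was 0.95 log2 higher in mbf1Δ cells and ARG56, the acetylglutamate kinase and reductase, 0.57 log2 higher. Of the 8 genes on the arginine list 6 were higher in mbf1Δ cells and none lower. ARG2 and ARG8 did not pass, at 0.24 and 0.16 log2. In all 8 genes the 3 mbf1Δ libraries lay above the 3 gcn2Δ libraries, as they did for 543 of the 5822 tested genes (9.33%). The list median was 1.09 log2, against 0.00 over all tested genes, and 5 of the 8 passed in the 6 libraries alone. Against treated WT (2411 genes, 41.4%, differed in mbf1Δ and 3302, 56.7%, in gcn2Δ) the list medians were -2.28 in mbf1Δ cells and -3.38 in gcn2Δ cells. These comparisons share libraries with each other and with the direct one.

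Histidine genes showed the same order at smaller size. HIS4, which carries several steps of the pathway, had 161, 205 and 207 CPM in mbf1Δ cells and 77.9, 80.9 and 97.9 in gcn2Δ cells (1.16 log2, adjusted p = 1.06e-07), with 1319, 1153 and 1272 in WT. HIS1, the first enzyme, had 173, 173 and 171 CPM in mbf1Δ cells and 89.9, 90.2 and 79.5 in gcn2Δ cells (0.99 log2). HIS5 was 0.78 log2 higher, and 5 of 6 histidine genes were higher in mbf1Δ cells, HIS6 not passing at -0.05. The list median was 0.51 log2, and against WT it was -1.50 in mbf1Δ cells and -2.01 in gcn2Δ cells.

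Enzymes at the head of the threonine and methionine branch also stood apart. HOM3, aspartate kinase, had 149, 194 and 208 CPM in mbf1Δ cells and 60.8, 71 and 87.5 in gcn2Δ cells (1.33 log2). HOM2, the next enzyme, had 303, 376 and 394 CPM in mbf1Δ cells and 154, 154 and 167 in gcn2Δ cells (1.18 log2). The later steps HOM6, THR1 and THR4 did not pass, at 0.19, 0.12 and 0.14 log2. Of 18 serine, glycine, threonine and one-carbon genes 5 were higher, the others being the glycine cleavage subunits GCV1 and GCV2 and the serine enzyme SER1, and 9 were higher without replicate 1 of treated mbf1Δ.

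Of 12 branched-chain genes 9 were higher in mbf1Δ cells, among them LEU4 at 0.81, ILV3 at 0.79, ILV2 at 0.66 and the mitochondrial carrier OAC1 at 0.65 log2. The exception was BAT2, the cytosolic branched-chain aminotransferase, with 205, 262 and 248 CPM in mbf1Δ cells and 287, 285 and 328 in gcn2Δ cells (-0.33 log2, adjusted p = 0.00714), while its mitochondrial counterpart BAT1 was 0.59 log2 higher. Of 13 aromatic genes 9 were higher, led by ARO1, which carries 5 shikimate steps, with 427, 466 and 473 CPM in mbf1Δ cells and 208, 236 and 258 in gcn2Δ cells (0.96 log2), and by the first-step isozymes ARO4 and ARO3 at 0.95 and 0.92 log2. Of 10 lysine genes 5 were higher, LYS2 at 0.74 and LYS1 at 0.62 log2 among them.

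Over the 67 genes of these amino acid lists, 39 were higher in mbf1Δ cells and 1 lower, with a median of 0.33 log2. The 6 libraries alone gave 23 higher and 0 lower at that adjusted p (38 and 1 at an unadjusted p under 0.05), and on the TPM scale 28 were higher and 3 lower. Against treated WT the median was -1.07 in mbf1Δ cells and -1.47 in gcn2Δ cells. The size was uneven between pathways: the medians ran from 1.09 for arginine to 0.19 for serine, glycine, threonine and one-carbon genes. The 26 sulfur and methionine genes had 4 higher, including MET22 and the transsulfuration enzymes STR2 and STR3, and 3 lower, MHT1, SAM1 and CYS4, with a median of 0.08. Without replicate 1 of treated mbf1Δ 7 were higher and 3 lower, and on the TPM scale none was higher and 3 were lower.

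**Figure D2:**
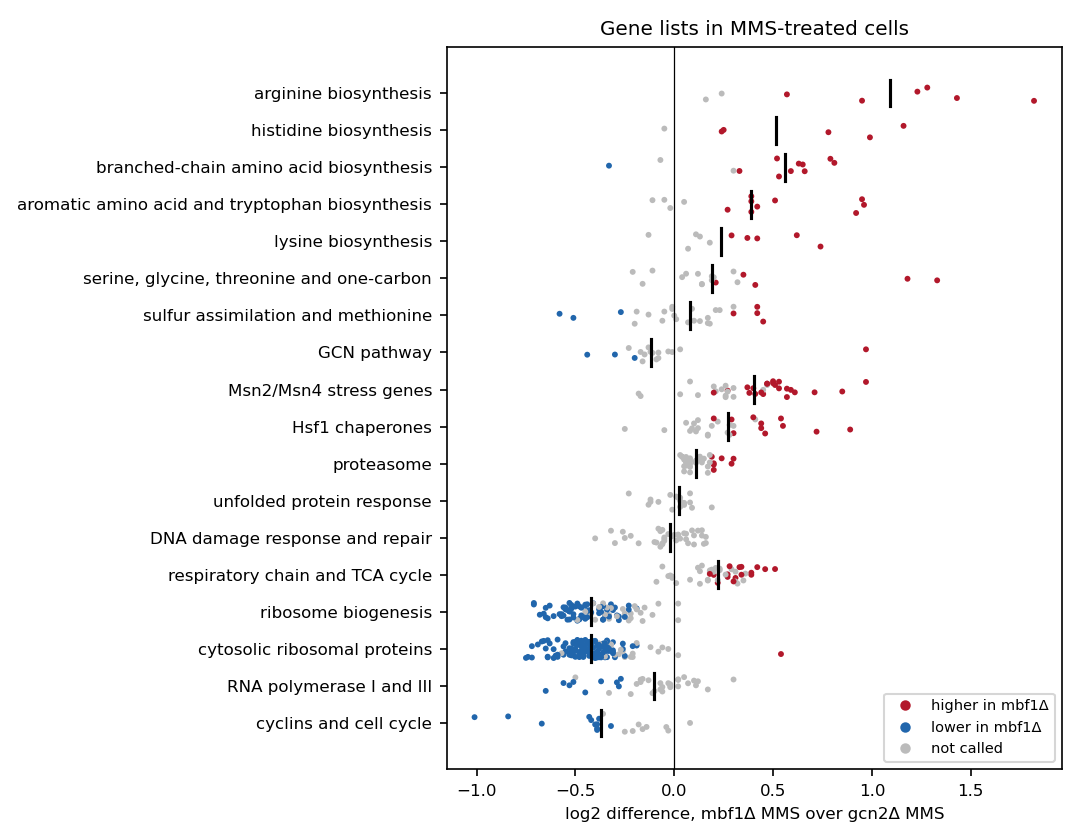
Log2 difference of treated mbf1Δ over treated gcn2Δ cells for each gene of 18 lists, with the list median as a black bar; red genes were higher, blue genes lower at an adjusted p under 0.05, grey genes did not pass. The arginine list is centred on 1.09, the ribosome biogenesis and ribosomal protein lists on -0.42 each, and the DNA damage list on -0.02.

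GCN4 mRNA itself had 326, 359 and 363 CPM in treated mbf1Δ cells and 326, 345 and 387 in treated gcn2Δ cells, with 581, 566 and 557 in WT. The 2 deletion strains overlapped entirely. Their difference was -0.01 log2 (SE 0.0793, adjusted p = 0.95, edgeR's quasi-likelihood test) with a 95% interval of -0.18 to 0.15, or 0.882 to 1.11-fold, and its sign turned when single libraries were left out (0.02 without replicate 1 of treated mbf1Δ and 0.04 without replicate 3 of treated gcn2Δ). Of the 17 tested genes of the pathway around Gcn2 the only one higher in mbf1Δ cells was PCL5, the Pho85 cyclin through which Gcn4 is marked for degradation and itself a Gcn4 target. PCL5 had 143, 109 and 101 CPM in mbf1Δ cells and 63.8, 67.2 and 49.3 in gcn2Δ cells (0.97 log2, adjusted p = 2.48e-06). The 3 lower genes were the ribosome-binding GTPases RBG1 at -0.44 and RBG2 at -0.30 and the eIF2 subunit GCD11 at -0.20 log2. Of this list, 6 genes were lower without replicate 1 of treated mbf1Δ and 5 with DESeq2. Over all tested genes 784 of 5830 were lower in the first of these fits and 515 of 5822 in the second. In the main fit 6.30% of all tested genes were higher, near the share of this list, and 7.56% were lower. GCN1, whose product presents collided ribosomes to Gcn2, differed by 0.03 and did not pass. SNZ1, a vitamin B6 gene that Gcn4 activates, had 20.7, 20.1 and 22.3 CPM in mbf1Δ cells and 17.3, 17.5 and 16.4 in gcn2Δ cells, against 164, 155 and 163 in WT. Its difference of 0.30 log2 passed (adjusted p = 0.0155), and both deletions stood far below WT.

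The Gcn4 core was present in 406 of the 5804 upstream windows (7%), in 19.8% of windows of genes higher in mbf1Δ cells and in 3.64% of windows of genes lower there. Of the genes higher by at least 2-fold with a window, 11 of 16 held it (68.8%). It was in 7 of 8 arginine windows (87.5%) and in 43 of 67 amino acid windows (64.2%). Within those 67 the median difference was 0.39 log2 with the core and 0.28 without it, but the order varied by list. With the core the median was lower for lysine (0.18 against 0.29) and branched-chain genes (0.53 against 0.64). It was higher with the core for the arginine, histidine, aromatic and serine lists. The windows overlap neighbouring genes in places, and no binding was measured.

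**Figure D3:**
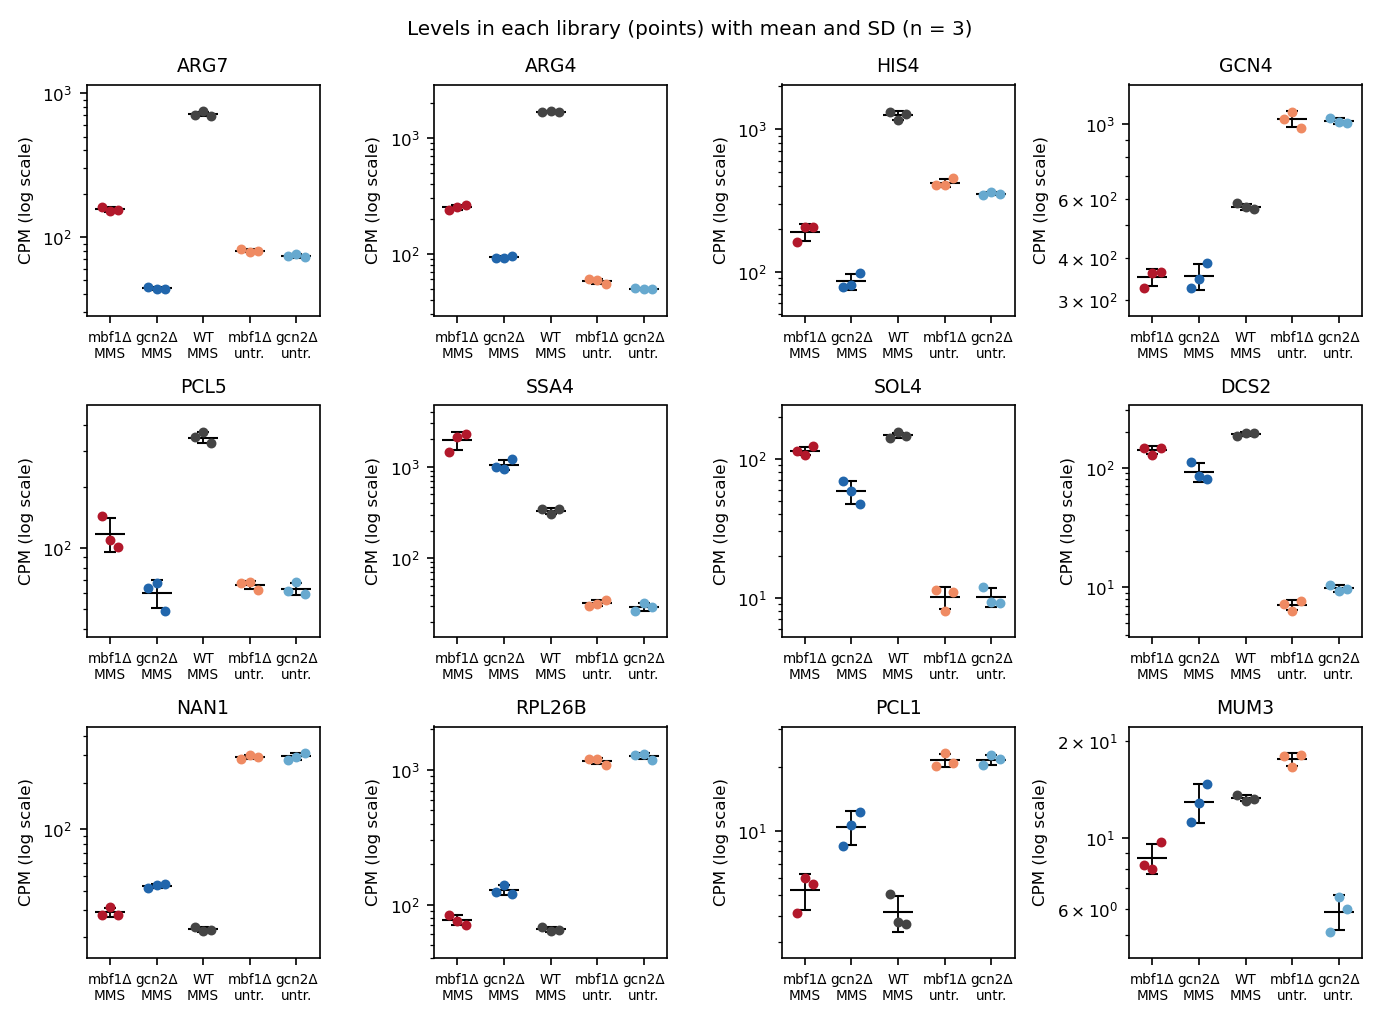
Levels in CPM (log scale) of 12 genes in each library of treated mbf1Δ, treated gcn2Δ and treated WT cells and of untreated mbf1Δ and gcn2Δ cells; points are libraries, bars the mean and SD (n = 3). ARG7, ARG4 and HIS4 in treated mbf1Δ cells lie between treated gcn2Δ and treated WT, GCN4 is alike in both treated deletions, SSA4 is highest in treated mbf1Δ cells, and MUM3 turns its order round between treated and untreated cells.

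A share of the chaperone and stress genes was also higher in treated mbf1Δ cells. SSA4, the stress-inducible cytosolic Hsp70, had 1462, 2096 and 2301 CPM in mbf1Δ cells, 995, 953 and 1215 in gcn2Δ cells and 342, 304 and 347 in WT (0.89 log2 between the deletions, adjusted p = 5.22e-05). Its order therefore differed from that of the amino acid genes: mbf1Δ was highest and WT lowest. Of 29 chaperone genes driven by heat shock factor Hsf1, 11 were higher and none lower, with a median of 0.27 log2. In the 6 libraries alone 2 passed, and on the TPM scale 5 passed, with a median of 0.13 against -0.135 over all tested genes. HSP26, a small heat shock protein, was 0.72 log2 higher, HSP104, the disaggregase, 0.55, and SSE2, an Hsp110, 0.54. Against WT the list median was 0.88 in mbf1Δ cells and 0.62 in gcn2Δ cells. The Hsp90 genes HSP82 and HSC82 did not pass, at 0.22 and 0.09. None of 18 unfolded protein response genes passed in edgeR or DESeq2 (median 0.03, HAC1 0.19 and KAR2 0.08), and 2 were lower at an unadjusted p under 0.05. Of these, 1 was lower without replicate 1 of treated mbf1Δ, as on the TPM scale.

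Targets of the general stress factors Msn2 and Msn4 were higher in part. Of 38 genes 22 were higher and none lower in mbf1Δ cells, with a median of 0.41 log2. SOL4, a 6-phosphogluconolactonase, had 113, 107 and 123 CPM in mbf1Δ cells, 68.9, 58.3 and 47.3 in gcn2Δ cells and 141, 155 and 145 in WT (0.97 log2, adjusted p = 3.36e-05). DCS2 had 147, 128 and 146 CPM in mbf1Δ cells and 111, 84.6 and 80.1 in gcn2Δ cells (0.61 log2). HSP12, a membrane-associated stress protein, was 0.85 log2 higher and GPH1, glycogen phosphorylase, 0.71. For these genes mbf1Δ cells stood nearer WT: the list median against WT was -0.19 in mbf1Δ cells and -0.64 in gcn2Δ cells. Only 2 of the 38 passed in the 6 libraries alone, and 4 on the TPM scale. AGGGG was in 71.1% of the list's windows, in 39.7% of windows of genes higher in mbf1Δ cells and in 19.6% of all windows.

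Energy metabolism and protein turnover gave smaller values. The TPM medians given here stand beside a median of -0.135 log2 over all tested genes on that scale. Of 20 trehalose and glycogen genes 7 were higher, with NTH1, neutral trehalase, at 1020, 1021 and 1075 CPM in mbf1Δ cells and 839, 781 and 789 in gcn2Δ cells (0.37 log2). The list median was 0.18, but 1 passed in the 6 libraries alone, and on the TPM scale the median was 0.03 and none passed. Of 45 respiratory chain and citric acid cycle genes 16 were higher and none lower (median 0.22), with SDH1 at 0.51, RIP1 at 0.46, QCR2 of complex III at 0.39 and KGD2 of the ketoglutarate dehydrogenase at 0.31 log2, but none passed in the 6 libraries alone, where 13 were higher at an unadjusted p under 0.05, and 2 passed on the TPM scale, with a median of 0.09. All 37 proteasome and ubiquitin genes lay above 0, between 0.03 and 0.30 log2, and 7 passed, PRE2 and UBI4 among them (12 without replicate 1 of treated mbf1Δ); on the TPM scale their median was -0.03 and none passed. Of 29 glycolysis and fermentation genes FBA1 was higher and ALD6 lower, and without replicate 1 of treated mbf1Δ 15 were higher. In the main fit 6.30% of all tested genes were higher and 7.56% lower, and the glycolysis counts lie below those shares. Without replicate 1 of treated mbf1Δ 692 of 5830 tested genes were higher.

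Most of the listed genes that make ribosomes were lower in treated mbf1Δ cells. Of 97 ribosome biogenesis genes 68 were lower and none higher, with a median of -0.42 log2. NAN1, of the small subunit processome, had 27.9, 31.2 and 27.7 CPM in mbf1Δ cells, 41.5, 43.6 and 44 in gcn2Δ cells and 23.3, 21.9 and 22.1 in WT (-0.57 log2, adjusted p = 9.92e-07). NOC4, of the same complex, had 25.2, 24.9 and 23.5 CPM in mbf1Δ cells and 34.8, 35.5 and 35.9 in gcn2Δ cells (-0.53 log2). Untreated, NAN1 had 285, 302 and 293 CPM in mbf1Δ cells and 282, 295 and 310 in gcn2Δ cells, and NOC4 had 133, 149 and 140 CPM in mbf1Δ cells and 132, 135 and 139 in gcn2Δ cells, so the untreated strains overlapped where the treated ones did not. The list median against WT was 0.39 in mbf1Δ cells and 0.83 in gcn2Δ cells, and 6 of the 97 passed in the 6 libraries alone.

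Ribosomal protein genes followed. Of 137 cytosolic ribosomal protein genes 116 were lower and 1 higher, with a median of -0.42 log2, and 29 were lower in the 6 libraries alone. RPL26B had 83.8, 75.2 and 71.1 CPM in mbf1Δ cells and 125, 141 and 120 in gcn2Δ cells (-0.75 log2), and RPL37B had 106, 114 and 109 CPM in mbf1Δ cells and 166, 203 and 181 in gcn2Δ cells (-0.74 log2). The groups did not overlap for either gene, which for RPL26B was a condition of naming it. RPS9B, at -0.72 log2, and RPL15B, the gene that was higher at 0.54 log2, each have a near-identical copy, RPS9A and RPL15A, so their values are uncertain. Against WT the list median was 0.01 in mbf1Δ cells and 0.44 in gcn2Δ cells. Of 67 mitochondrial ribosomal protein genes 1, MRPL10 at -0.18, passed, while 10 were lower and 1 higher without replicate 1 of treated mbf1Δ, and DESeq2 called 3 lower.

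Subunits of RNA polymerase I were among the 9 of 37 polymerase I and III genes that were lower. RPA49 had 14.3, 15.6 and 12.7 CPM in mbf1Δ cells and 24, 21 and 21.7 in gcn2Δ cells (-0.65 log2), and RPA43 had 8.3, 6.85 and 7.87 CPM in mbf1Δ cells and 10.9, 11.2 and 11.3 in gcn2Δ cells (-0.53 log2). TRM11, a tRNA methyltransferase subunit, differed by -0.75 log2. The PAC element was in 44.3% and the RRPE core in 31.8% of windows of genes lower in mbf1Δ cells, against 17.1% and 8.98% of all windows. Among ribosome biogenesis windows the shares were 89.7% and 76.3%, and among ribosomal protein windows 11.7% and 6.57%.

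**Figure D4:**
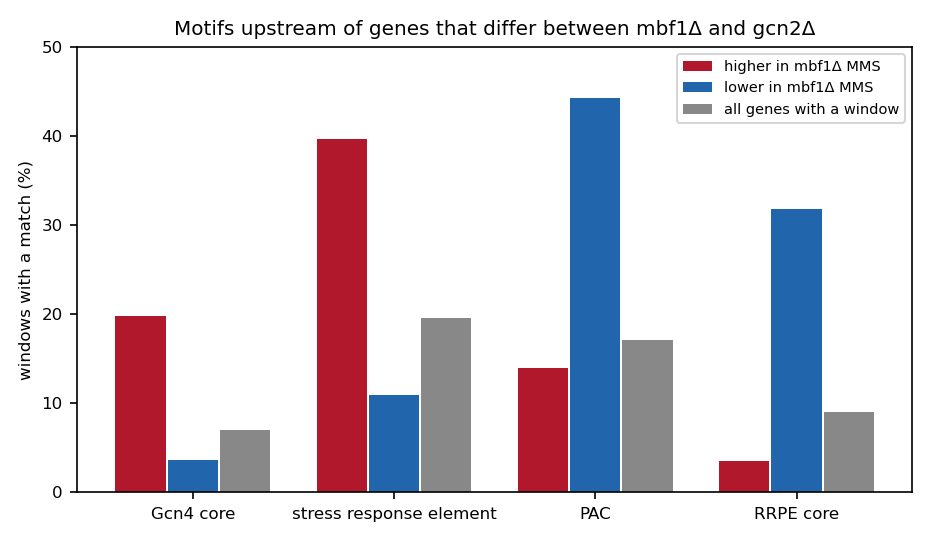
Share of upstream windows (percent, vertical axis) with a match to each of 4 motifs, for genes higher in treated mbf1Δ cells, genes lower there, and all tested genes with a window. The Gcn4 core and the stress response element are most frequent upstream of the higher genes (19.8% and 39.7%), PAC and RRPE upstream of the lower genes (44.3% and 31.8%).

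Of 20 cyclins and cell cycle regulators 11 were lower in treated mbf1Δ cells and none higher. PCL1, a G1 cyclin of Pho85, had 4.13, 6.02 and 5.66 CPM in mbf1Δ cells and 8.5, 10.7 and 12.2 in gcn2Δ cells (-1.01 log2, adjusted p = 3.65e-05). CLN2, a G1 cyclin of Cdc28, had 19.7, 17.3 and 17.2 CPM in mbf1Δ cells and 27.1, 30.2 and 29.5 in gcn2Δ cells (-0.67 log2). CLB6, an S-phase cyclin, had at most 3.33 CPM in mbf1Δ cells and at least 3.71 in gcn2Δ cells (-0.84 log2). The list median was -0.37, and against WT it was -0.08 in mbf1Δ cells and 0.31 in gcn2Δ cells. In the 6 libraries alone 1 of the 20 was lower, and on the TPM scale 6 were. None of 11 histone genes passed in edgeR or DESeq2, and 2 were lower at an unadjusted p under 0.05. The count of lower histone genes was 2 without replicate 1 of treated mbf1Δ and 2 on the TPM scale.

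Further genes were named for standing among the lowest values, not from a list, and only genes without overlap of the libraries could be named so. TOS6, a cell wall gene, had 9.98, 14.1 and 13.8 CPM in mbf1Δ cells and 24.4, 26.6 and 34.4 in gcn2Δ cells (-1.19 log2, adjusted p = 2.09e-05). SCW10, a cell wall glucanase-like protein, had 112, 153 and 148 CPM in mbf1Δ cells and 194, 256 and 315 in gcn2Δ cells (-0.89 log2). SVS1 differed by -0.86 log2 and PRY2, a secreted sterol-binding protein, by -0.81 log2. CHA1, the catabolic serine and threonine deaminase, had 111, 114 and 108 CPM in mbf1Δ cells and 240, 181 and 186 in gcn2Δ cells (-0.87 log2). INA1 differed by -0.75 log2. Low-count genes at this end, YKL102C at -0.96 and YAR066W at -1.23, had at most 2.69 CPM in any of the 6 libraries, and YAR066W has a near-identical copy, YHR214W.

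No gene of the 38 in the DNA damage response and repair list passed in edgeR, where 1 was higher and 5 lower at an unadjusted p under 0.05. DESeq2 called 2 of them lower. In edgeR without replicate 1 of treated mbf1Δ, 2 were higher and 4 lower, and on the TPM scale 3 were lower. The shares of 2 and 4 lie below those over all genes in that fit (692 higher and 784 lower of 5830). The median was -0.02 log2, and the values ran from -0.40 for RNR3, a ribonucleotide reductase subunit induced by damage, to 0.16 for MEC1, the checkpoint kinase. MAG1, the glycosylase that removes alkylated bases, differed by -0.06 and MGT1, the alkyltransferase, by 0.14. In simulated counts of all 24 libraries, 78% of genes changed 1.5-fold and 99% of those changed 2-fold were found. The changed genes were drawn from all tested genes, and each library was drawn independently. The simulation therefore does not say how many changes in this list would be found. Of 23 genes of collided ribosome rescue CDC48 was higher (0.21 log2) and NEW1, STM1 and SMY2 lower (-0.37, -0.31 and -0.18), while the collision sensor HEL2 differed by -0.02 and did not pass. The count of lower genes there was 6 without replicate 1 of treated mbf1Δ, a fit in which 784 of 5830 tested genes were lower. In the main fit 6.30% of all tested genes were higher and 7.56% lower.

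Without MMS few genes passed when all 24 libraries were fitted together. Untreated mbf1Δ and gcn2Δ cells differed in 9 genes (0.155%), all higher in mbf1Δ cells, in edgeR's quasi-likelihood test at the same threshold. At an unadjusted p under 0.05 there were 513 higher and 395 lower genes. DESeq2 gave 32, 7 of them lower. The 6 untreated libraries alone gave 495, more than the 104 of the 6 treated libraries alone. Which of the treated and untreated counts is larger thus depends on the libraries in the fit. Among the 9 were ARG1, GDH1, FRE4, AIM14, MRX10, MUM3, ATP6 and YJL225C, and YJL225C has near-identical copies. Leaving out replicate 1 or 3 of untreated gcn2Δ left 4 genes each time, and leaving out replicate 3 of untreated mbf1Δ left 5. The difference between the strains itself changed with treatment in 392 genes (6.73%), above 0 in 157 (2.70%) and below in 235 (4.04%). That count was 231 without replicate 1 of untreated gcn2Δ, 221 without replicate 2 of untreated mbf1Δ and 260 without replicate 3 of untreated mbf1Δ. ARG7 had 82.9, 79.3 and 79.7 CPM in untreated mbf1Δ cells and 73.7, 76.1 and 72.2 in untreated gcn2Δ cells, 0.12 log2 apart, so its treated minus untreated difference was 1.69 (adjusted p = 3.3e-13, edgeR's quasi-likelihood test). In the Msn2 and Msn4 list the untreated median was -0.17 and the treated minus untreated difference passed in 15 genes, all above 0. In the ribosome biogenesis list the untreated median was 0.00 and 42 passed, all below 0, and in the ribosomal protein list 60 were below 0 and 1 above.

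Genes beside the deleted loci were set apart. MRX10 borders GCN2 and had 22.5, 19.3 and 18.3 CPM in treated mbf1Δ cells and 9.49, 9.45 and 8.45 in treated gcn2Δ cells (1.13 log2); untreated it differed by 1.25 log2, and the change of -0.11 between treated and untreated cells did not pass (adjusted p = 0.782, edgeR's quasi-likelihood test). DPP1, on the other side, differed by 0.10 and did not pass, though it passed at 0.23 without replicate 1 of treated mbf1Δ and was at -0.04 on the TPM scale. MUM3, a sporulation gene beside MBF1, had 8.23, 8.01 and 9.69 CPM in treated mbf1Δ cells and 11.2, 12.8 and 14.7 in treated gcn2Δ cells (-0.58 log2), but 17.9, 16.6 and 18 in untreated mbf1Δ cells and 5.12, 6.55 and 6.03 in untreated gcn2Δ cells (1.57 log2). It was the only gene that passed with opposite signs in treated and untreated cells. MUM3 ends at base 877038 and MBF1 begins at 877230, and most gene models reach beyond the coding span. Reads of MUM3 and MBF1 may therefore be shared, which was not tested. In gcn2Δ cells MBF1 had 254, 313 and 243 CPM untreated and 1003, 1075 and 956 CPM treated. BUD7, on the other side of MBF1, was 0.17 log2 higher.

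AIM14, a ferric reductase-like gene, had 80.5, 86 and 94.4 CPM in treated mbf1Δ cells, 34.5, 37.9 and 40.2 in treated gcn2Δ cells and 95.3, 98 and 104 in treated WT (1.21 log2). Untreated it differed by 1.90 log2, more than with MMS, and its neighbours on the chromosome did not pass. BSC5 had 72.6, 62.6 and 64.8 CPM in treated mbf1Δ cells and 30.7, 30.4 and 27.4 in treated gcn2Δ cells (1.18 log2) but 4.64 to 5.64 CPM in untreated mbf1Δ cells and 4.87 to 5.67 in untreated gcn2Δ cells. Its neighbour YNR068C differed by 1.15 log2, and because most gene models in the files reach beyond the coding span, reads of the pair may be shared.

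**Figure D5:**
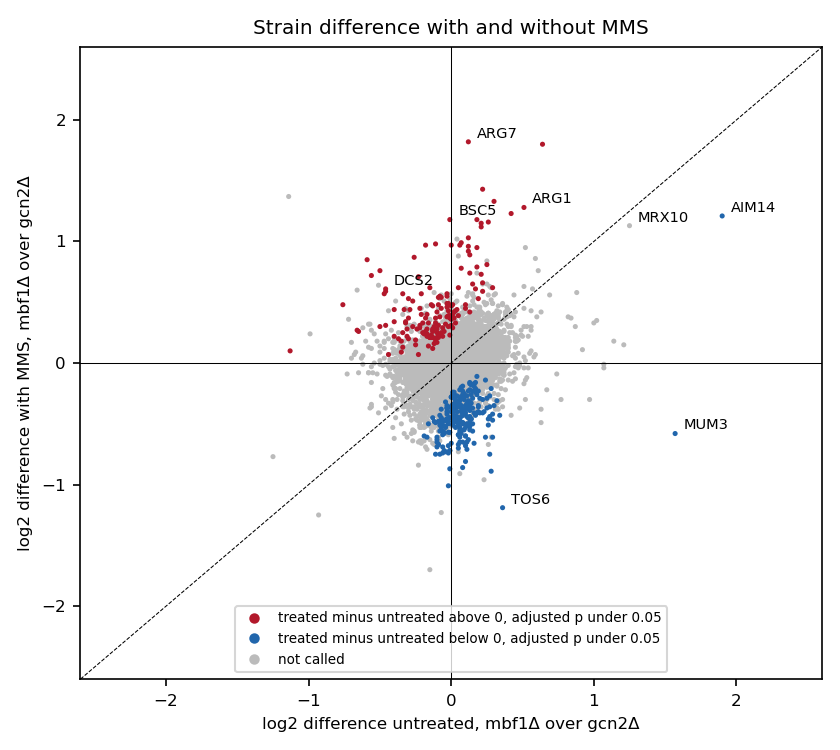
Log2 difference of mbf1Δ over gcn2Δ cells with MMS (vertical axis) against the same without MMS (horizontal axis), for genes whose mean CPM in both strains sum to over 2; the dashed line marks equal differences, and red or blue points passed the test of the change. Most genes lie near 0 on the horizontal axis, ARG7 stands high at 1.82 against 0.12, MRX10 lies near the line, AIM14 below it at 1.21 against 1.90, and MUM3 far under it; 3 genes with near-identical copies lie outside the axes.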

How the data were processed

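RNA was quantified in 24 libraries (4 strains, each untreated and treated, 3 biological replicates a group per the series' design text). Per the submitters' processing notes, reads were handled with fastp and FastQC 0.11.9 and quantified with Salmon 1.10.1 on the R64 build; the authors also ran DESeq2 1.38.3, whose tables were not used here. The deposited files hold estimated counts and TPM (transcript abundance corrected for length) for 5912 genes. For 5623 genes the deposited length is the coding span plus 400 bases, so neighbours can share reads, and 302 genes have a copy at least 90% identical over at least 50% of their length. Strandedness is not given in the sources used here.

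Estimated counts, as deposited, were rounded to whole numbers, filtered at a minimum count of 10 (5824 genes kept, MBF1 and GCN2 included), scaled by TMM, and modelled by edgeR 4.0.16 (R 4.3.3) with 8 groups, no covariate, 16 residual degrees of freedom, biological coefficient of variation 8.49%. Tests were two-sided quasi-likelihood F tests called at 0.05 after adjusting by Benjamini-Hochberg over every gene tested. CPM are counts at a common library size on that scale. The alternatives used DESeq2 1.42.0, limma 3.58.1 on log2(TPM + 1) or log2(TPM + 0.1), other filters and scaling, a replicate block, and libraries left out. The test was checked on counts simulated independently for each of the 24 libraries, with 200 of 5820 genes changed, which gave 10 false calls. The spread between replicates and the depth of 13518147 to 28366559 counts limit the precision.

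The members and gene lists were chosen with earlier results of these data known. Named genes were those passing with at least 50 counts on average in 1 group and no overlap of libraries, the 12 highest and 12 lowest, then the 6 highest and 6 lowest that also passed the change with treatment and not the untreated test, up to 4 each way that passed with the other sign untreated, and 2 passing members of each list in each direction; GCN4, ARG1, HIS4, LYS1, SNZ1 and the neighbours of both deleted genes were named whatever their values. Other list members in the text were chosen after their values were seen. Values of 4 genes are not reported here.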

Additional observations from a re-analysis of the deposited data

Results flagged for a closer look

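The results in this section were singled out because the difference between mbf1Δ and gcn2Δ cells was not the same with and without MMS, by a test of that change itself: the interaction of strain and treatment in edgeR's quasi-likelihood test, adjusted over all 5822 genes. It passed for 392 genes, 65 of them among the named genes, and each value below is the treated difference minus the untreated difference in log2. A positive value means that mbf1Δ stood higher against gcn2Δ cells with MMS than without.

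Most of the named amino acid genes had positive values. For arginine synthesis the values were ARG7 1.69, ARG4 1.21, YOR302W 1.16, CPA1 0.81 and ARG1 0.77. For histidine they were HIS1 0.92, HIS4 0.90, HIS5 0.71 and HIS3 0.51, and for the aspartate branch HOM3 1.03 and HOM2 1.00. Aromatic, lysine and branched-chain genes had ARO1 0.84, ARO3 0.80, LYS2 0.61, OAC1 0.50, LEU9 0.34 and LYS1 0.33, and sulfur genes STR2 0.35 and MET22 0.33. PCL5, the cyclin that marks Gcn4 for degradation, had PCL5 0.91, and the nitrogen genes had UGA3 0.45 and UGA2 0.34.

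Stress and carbohydrate genes followed. The values were DCS2 1.07, SOL4 0.97, SSA4 0.76 and SSE2 0.62 for stress genes, NTH1 0.55 and GDB1 0.47 for trehalose and glycogen, and PHM8 0.45, MRS4 0.40, PRX1 0.38, UBI4 0.35 and RME1 0.37 for single members of other lists. BSC5 and its neighbour had BSC5 1.19 and YNR068C 0.94. RPL15B, which has a near-identical copy, had RPL15B 0.61, apart from the other ribosomal protein genes.

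Genes that make ribosomes and tRNA had negative values: RPS9B -0.71, RPL37B -0.68 and RPL26B -0.63 for ribosomal proteins, NOC4 -0.58, NAN1 -0.56 and TRM11 -0.66 for assembly and tRNA modification, RPA49 -0.55 and RPA43 -0.49 for RNA polymerase I, and RBG1 -0.48, NEW1 -0.40 and CRS1 -0.34 for translation factors and a tRNA synthetase. Nucleotide genes had URA7 -0.70, FUR1 -0.57, IMD3 -0.45 and GUA1 -0.45. Cell cycle and cell surface genes had TOS6 -1.55, SCW10 -1.17, INA1 -1.02, PCL1 -0.99, SVS1 -0.94, PRY2 -0.91, BAR1 -0.60 and CLN2 -0.58, and metabolic genes CHA1 -0.85, FAA4 -0.65, ALD6 -0.62 and CYS4 -0.37. AIM14, higher in mbf1Δ cells under both treatments, had AIM14 -0.69, its untreated difference being the larger. MUM3, the neighbour of the deleted MBF1 locus, had MUM3 -2.15, and was the named gene that was higher in untreated and lower in treated mbf1Δ cells.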

How the results depend on the processing

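The 807 genes differing between treated mbf1Δ and gcn2Δ cells became 104 with the 6 libraries alone (844 at an unadjusted p under 0.05), and 1500 without replicate 1 of mbf1Δ in either treatment, an alternative chosen after seeing the data. Leaving out 1 replicate gave 555 to 1476 genes. The count was 904 with DESeq2, 785 with DESeq2's size factors in edgeR, 805 without a filter on low counts, 797 without genes over the rDNA, 571 and 567 with limma on log2(TPM + 1) and log2(TPM + 0.1), and 990 with the rDNA share as a covariate, also chosen after seeing the data. The 9 untreated genes became 32 with DESeq2, 5 with limma at a pseudocount of 0.1, 5 with the covariate, 495 with the 6 libraries alone, 115 without replicate 1 of mbf1Δ, and 4 to 13 leaving out 1 replicate. The 392 genes whose difference changed with treatment became 135 and 129 with limma at pseudocounts of 0.1 and 1, 103 in the groups compared alone, and 221 to 479 leaving out 1 replicate. Treated mbf1Δ against WT gave 2411 genes, and 1561 in the groups compared alone. The causes were not tested. Leaving out 1 replicate gave 1997 to 2607 genes for treated mbf1Δ against WT and 2926 to 3421 for treated gcn2Δ against WT. Same-numbered treated libraries had deviations from their group means correlated at 0.527, -0.195 and 0.538 over genes. Treated mbf1Δ replicate 1 and gcn2Δ replicate 3 had -0.636. Same-numbered untreated libraries of these strains had 0.212, -0.00626 and -0.0534. These values do not settle whether the numbers pair the samples, and the main test used no pairing. With a replicate block the counts were 766 treated, 8 untreated and 349 for the change with treatment. Over the named genes and these alternatives, 1367 results kept direction and side of the threshold, 178 no longer passed (59 of them in the 6 libraries alone), and 2 newly passed, both DPP1 without replicate 1 of mbf1Δ. In 5 results the sign turned, for genes that did not pass: GCN4 became 0.04 without replicate 3 of treated gcn2Δ and 0.02 without replicate 1 of mbf1Δ, in treated cells or in both treatments (-0.08 to 0.04 leaving out 1 replicate), and DPP1 became -0.04 with limma at either pseudocount. Of the list medians 87 moved by at least 0.1 log2, 36 and 37 of them with limma at pseudocounts of 1 and 0.1. In simulated counts of all 24 libraries, drawn without deviations shared between libraries, 78% of 1.5-fold and 99% of 2-fold changes were found. In the data, 88 genes were not tested for low counts.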

Other observations

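Genes outside the lists, ALD5 and TMT1 among them, were at least 2-fold higher in treated mbf1Δ cells, and ASN1 differed by less than 2-fold. ALD5, a mitochondrial aldehyde dehydrogenase, had 71.8, 84.5 and 76.2 CPM in treated mbf1Δ cells, 29.1, 37.1 and 40.9 in treated gcn2Δ cells and 357, 330 and 341 in treated WT (1.12 log2 between the deletions, adjusted p = 9.05e-08, edgeR's quasi-likelihood test). TMT1, a methyltransferase that acts on trans-aconitate, had 84.7, 79.8 and 80.0 CPM in mbf1Δ cells, 41.2, 38.3 and 40.2 in gcn2Δ cells and 506, 543 and 533 in WT (1.03 log2). ASN1, an asparagine synthetase, had 477, 651 and 606 CPM in mbf1Δ cells, 326, 350 and 370 in gcn2Δ cells and 1578, 1503 and 1610 in WT (0.73 log2). These 3 genes, chosen after their values were seen, share the order of the arginine genes, gcn2Δ lowest and WT highest. The mitochondrially encoded COX2 and COX3, subunits of cytochrome oxidase, differed by 1.60 and 1.21 log2, but neither passed 1.55 CPM in any library of either treated deletion.

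The share of all tested genes that was higher in treated mbf1Δ cells was 6.30%, and 7.56% were lower. Their median on the TPM scale was -0.135 log2. Leaving out replicate 1 of treated mbf1Δ, 692 of 5830 genes were higher and 784 lower. Of 31 nitrogen catabolite genes 5 were higher and none lower, UGA3 at 0.61, GAT1 at 0.46, GDH1 at 0.42, GLN3 at 0.40 and UGA2 at 0.39 log2, with a list median of 0.16. Without replicate 1 of treated mbf1Δ 14 were higher, and on the TPM scale 2 were, with a median of 0.02. Of 23 amino acid permeases AGP1 (0.65) and CAN1 (0.40) were higher, of 31 autophagy genes ATG41 (0.63) and ATG33 (0.56), and of 22 cytosolic aminoacyl-tRNA synthetases KRS1 (0.26) and DPS1 (0.22), with CRS1 lower (-0.26). Those permease and autophagy counts lie near the share over all genes. Without replicate 1 of treated mbf1Δ 7 permeases, 6 autophagy genes and 2 synthetases were higher and 3 synthetases lower, and on the TPM scale the permeases had 2 higher and 2 lower. Nucleotide genes were split. Of 16 purine genes ADE17 (0.41), ADE1 (0.26) and ADE12 (0.21), which act toward IMP and AMP, were higher, and IMD4 (-0.44), IMD3 (-0.33) and GUA1 (-0.32), which make GMP, were lower. Of 12 pyrimidine genes URA7 (-0.60), a CTP synthase, and FUR1 (-0.41) were lower. Without replicate 1 of treated mbf1Δ 5 purine genes were higher and 2 lower, and 2 pyrimidine genes were higher and 2 lower.

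The remaining lists held few passing genes. Of 26 tested Yap1 oxidative stress genes 4 were higher, among them ATR1 (0.45) and PRX1 (0.22). The list median of 0.10 became -0.03 on the TPM scale, where the median over all tested genes was -0.135. Without replicate 1 of treated mbf1Δ 10 of these Yap1 genes were higher and 1 lower. Single genes were higher in the hexose transporter (HXT5, 0.45), PHO (PHM8, 0.43), ergosterol (ERG26, 0.23) and iron (MRS4, 0.39) lists, while without replicate 1 of treated mbf1Δ these lists gave 2, 3, 6 and 10 higher genes in that order, and the ergosterol list 1 lower. In fatty acid synthesis FAA1 was higher (0.33) and FAA4 lower (-0.50). Of the mating-type and ploidy markers BAR1 (-0.46), STE4 (-0.23) and FAR1 (-0.39) were lower and RME1 (0.23) higher. None of 3 tested MATα and 8 meiosis markers passed in edgeR or DESeq2, with 0 and 1 at an unadjusted p under 0.05, and 1 MATα marker was higher without replicate 1 of treated mbf1Δ. HIS3, partly deleted in BY4741, had 44.2, 51.7 and 50.5 CPM in mbf1Δ cells and 34.4, 36.3 and 33.1 in gcn2Δ cells (0.49 log2).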
